A study of Mus musculus with 18 samples.

Results

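Thyroid hormone handling and response in the mouse liver was followed through 8 genes of the 19057 in the deposited table. They were chosen by symbol, with earlier results of these data known, and cover the plasma carriers Ttr and Serpina7, the membrane transporter Slc16a10, the deiodinase Dio1, the receptors Thra and Thrb, and the hormone-raised genes Thrsp and Klf9. All 8 were present, and all 8 passed the filter on low values. The livers came from male ICR mice, an outbred strain, sampled at 10 weeks of age, with 3 mice in each of 6 groups and 1 RNA sequencing library per mouse. The Con mice had a regular diet and saline. The STZ mice had 1 injection of streptozotocin, a toxin of the insulin-making beta cells of the pancreas. The A10-FMT mice had STZ and then small intestinal microbiota, given by mouth once daily, from donors that had taken AOS (alginate oligosaccharide) at 10 mg/kg. The Con-FMT mice had STZ and then microbiota of control donors, and the content of the donors was pooled within each kind. By the paper's methods the daily dosing of both transplant groups ended 3 weeks before sampling. The AOS mice, labelled with 10 mg/kg, and the STZ+AOS mice are described only by the sample labels, and the route and timing of their AOS are not given in the sources used here. All diabetic groups therefore shared the STZ injection, and no group had microbiota without STZ.

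The thyroid gland releases mainly thyroxine (T4), which travels in plasma bound to carrier proteins made in the liver. In hepatocytes, transporters move the hormone across the membrane and type 1 deiodinase removes an iodine from T4 to give the active hormone T3, or inactivates it. T3 binds nuclear receptors that sit on DNA with retinoid X receptors, and the bound receptors raise or lower their target genes. Liver Dio1 is itself a classical target of T3, and so is Thrsp, which acts in fatty acid synthesis. Low T3 in untreated diabetes and in fasting is a known part of the illness response. Hormone levels in blood were not analysed here.

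The sequence just before the transcription start is shown for 3 of the members called in STZ against Con. Their starts are the same, or within a few bases, in RefSeq and GENCODE. Dio1 was taken because it changed most, and Slc16a10 and Klf9 because they rose together. Serpina7, called only in Con-FMT against Con, is not shown. The windows come from RefSeq on GRCm38.p6, the same genome as the mm10 named in the submitters' processing notes, and read 5′ to 3′ on the strand of the gene. Capitals mark exact matches on either strand to 3 common promoter motifs. The first was the CCAAT box, searched by the letters in its name. The second was the GC box, searched as GGGCGG. The last was the TATA box, searched as TATAAA. Dio1 lies at chr4:107307170-107307418 (minus strand), Slc16a10 at chr10:40142259-40142504 (minus strand) and Klf9 at chr19:23140976-23141225 (plus strand). For Thrb, 30 bases at chr14:17660764-17660793 (plus strand) are shown with the half-site AGGTCA of nuclear receptors in capitals, because it was the only match to that half-site in the members' windows.
Dio1: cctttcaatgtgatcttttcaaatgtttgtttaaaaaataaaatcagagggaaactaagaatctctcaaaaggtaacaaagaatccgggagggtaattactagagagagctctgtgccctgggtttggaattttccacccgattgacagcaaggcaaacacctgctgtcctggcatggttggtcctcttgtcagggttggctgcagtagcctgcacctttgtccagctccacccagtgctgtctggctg
Slc16a10: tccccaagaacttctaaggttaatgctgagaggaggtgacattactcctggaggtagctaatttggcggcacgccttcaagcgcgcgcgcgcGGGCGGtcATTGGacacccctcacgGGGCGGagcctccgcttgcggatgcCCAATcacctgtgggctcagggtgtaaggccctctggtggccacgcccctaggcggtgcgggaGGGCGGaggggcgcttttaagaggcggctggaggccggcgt
Klf9: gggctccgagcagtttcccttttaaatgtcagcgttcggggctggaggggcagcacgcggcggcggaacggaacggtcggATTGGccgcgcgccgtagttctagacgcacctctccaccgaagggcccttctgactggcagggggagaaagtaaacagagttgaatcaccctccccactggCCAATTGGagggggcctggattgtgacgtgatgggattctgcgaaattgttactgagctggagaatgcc
Thrb: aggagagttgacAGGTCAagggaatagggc

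Of the 8 members, 6 had a 300-base window in the RefSeq table (250 bases before and 50 after the start). The half-site AGGTCA, searched as AGGTCA and TGACCT, was in the window of 1 of these 6 members, against 16.3% of all 32851 windows. The direct repeat of that half-site with 4 bases between, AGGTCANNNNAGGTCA, was in 0 of the 6 and in 5 windows in all. The Dio1 stretch shown held no TATA, CCAAT or GC box. The Slc16a10 stretch held 3 GC boxes and 2 CCAAT boxes, and the Klf9 stretch held 3 CCAAT boxes, 2 of them overlapping in CCAATTGG. A CCAAT box was in 37.4% of all windows, a GC box in 35.7% and a TATA box in 13.6%. These matches describe letters in short windows and say nothing about what binds there.

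In the GENCODE M21 annotation of GRCm38, Dio1 spans 107291465 to 107307169 of chromosome 4, Slc16a10 40033532 to 40142258 of chromosome 10, and Klf9 23141226 to 23168134 of chromosome 19. Thrsp spans 97412938 to 97417730 of chromosome 7, Thra 98740638 to 98769006 of chromosome 11, Thrb 17660261 to 18038090 of chromosome 14, and Serpina7 139079257 to 139085236 of chromosome X. Ttr lies on chromosome 18. All 8 are protein-coding. Thra was the only member whose exons overlap those of another gene: 263 of its 4614 exon bases (5.70%) lie on the strand opposite to exons of Nr1d1, a clock gene. The sources used here do not say that strand was counted, so reads of this stretch cannot be told apart. Nr1d1 itself ran from 1.22 to 3.68 RPKM in Con and from 10.03 to 66.51 RPKM in the other 5 groups.

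Values are RPKM, in which the reads of a gene are divided by its length and by the size of the library, so that levels of different genes can be compared per length. The sum of RPKM ran from 621121 to 806937 over the 18 libraries and was highest in Con. From 9955 to 10409 genes reached 1 RPKM in a library, and no libraries were identical. The reads behind a value are not known from RPKM. Hepatocyte markers (5 of 5 detected) summed to 34109 to 50753 RPKM in every library. Adipocyte markers, which matter for Thrsp as an abundant gene of fat, summed to at most 0.47 RPKM, with Lep at 0 in all 18 libraries. Thyroid follicle markers summed to at most 0.62 RPKM. In tissue, fewer cells that express a gene and less of its RNA per cell cannot be told apart.

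In Con livers the members covered a wide range of levels. Ttr, transthyretin, which carries T4 and the retinol-binding protein, had 4903 ± 1184 RPKM (SD, n = 3) and was followed by Thrsp with 244 ± 79.3 and Dio1 with 64.7 ± 9.44 RPKM. Slc16a10 (16.1 ± 2.27), Klf9 (15.4 ± 0.784) and Serpina7 (13.4 ± 1.69 RPKM) had ranges that met. The receptors were lowest, at 5.48 ± 0.307 RPKM for Thrb and 5.23 ± 0.962 RPKM for Thra, and their ranges overlapped.

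STZ against Con compares livers of the diabetes model with Con livers. The paper does not give the hour at which livers were taken. The clock gene Nr1d1 was lower in each Con mouse than in every mouse of the other groups, AOS included. Whether the hour of collection has a part in the comparisons with Con was not tested. Dio1 and Ttr fell and Slc16a10 and Klf9 rose, so that 4 of the 8 members were called at an adjusted p under 0.05, 2 in each direction. In the same comparison 38.5% of the 10602 genes tested were called, so that the share among the members was near that of all genes. The median log2 change was 0.00 for the members and 0.21 for all genes tested. Groups of mice did not overlap for 5 of the 8 members, against 47.7% of all genes tested. Here and below, tests are limma fits on log2(RPKM + 1), with Benjamini-Hochberg adjustment over all genes tested.

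**Figure D1:**
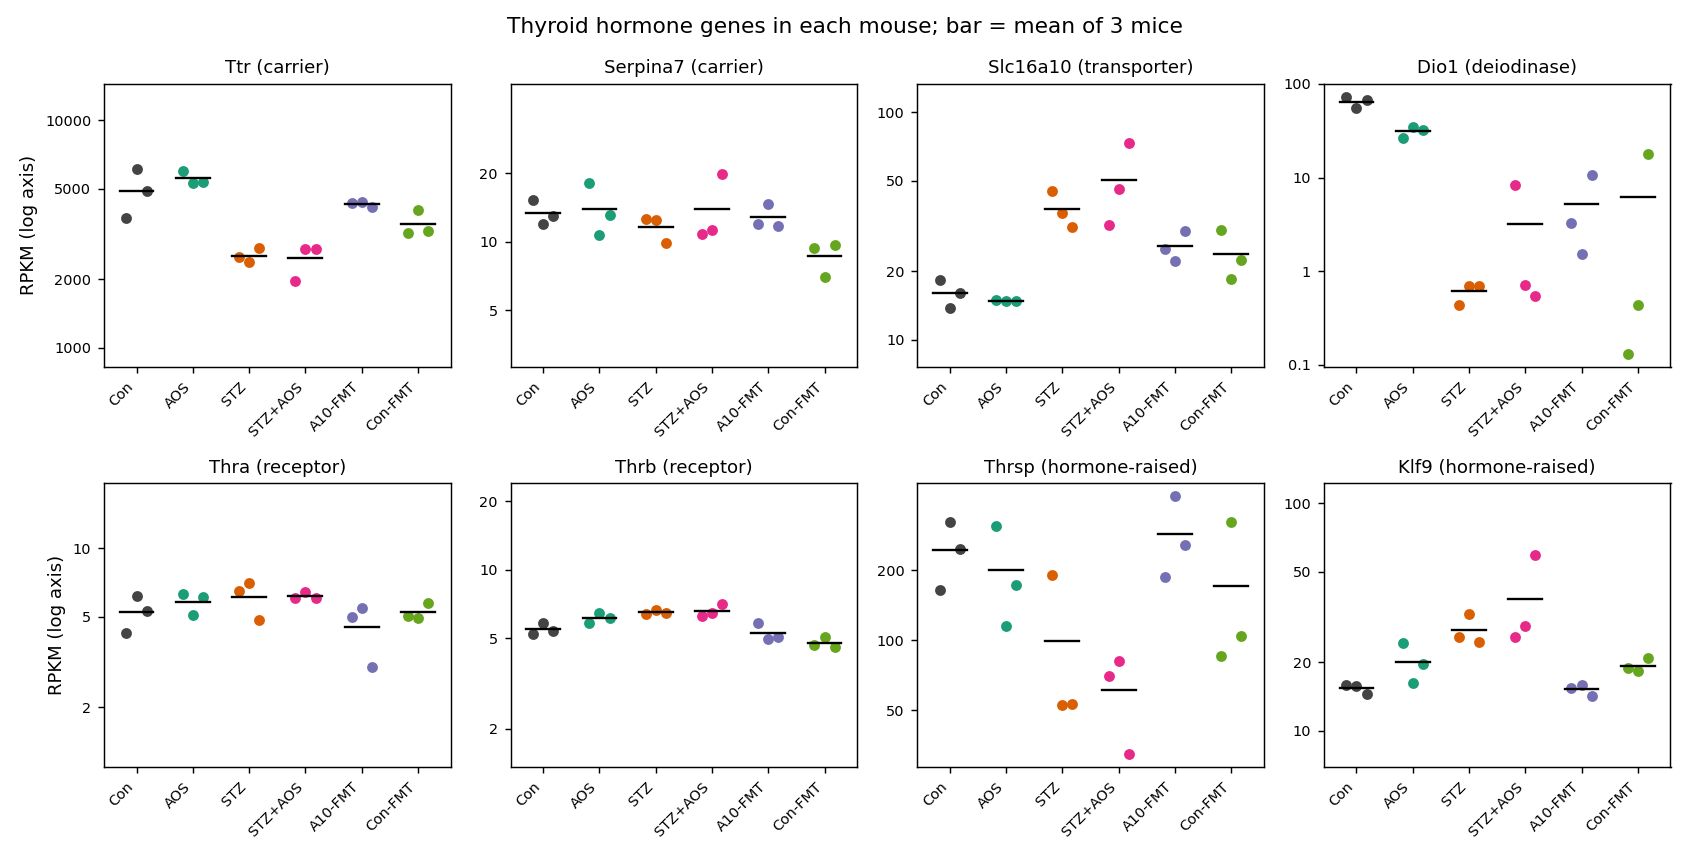
RPKM (log axis) of the 8 genes in each of the 18 mice, with 1 panel per gene, 1 point per mouse and a bar at the mean of the 3 mice of a group. Dio1 lies at 54.54 to 73.18 RPKM in Con and at 0.44 to 0.70 RPKM in STZ, and the A10-FMT and Con-FMT mice scatter between these levels or below, while Klf9 in A10-FMT lies at 14.27 to 15.90 RPKM beside Con.

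Among the carriers, Ttr fell. Its values were 3721, 6090 and 4897 RPKM in Con mice 1 to 3 and 2498, 2387 and 2733 RPKM in the STZ mice. Each STZ mouse was below each Con mouse, and the STZ mean was 51.8% of the Con mean. The log2 change was -0.92 (SE 0.20) with an adjusted p of 0.00560. The call was lost under quantile normalization (log2 change -0.55, adjusted p 0.0679), with adjusted p from 0.000486 to 0.0679 over 18 alternatives.

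Serpina7, which encodes thyroxine-binding globulin, showed no such difference. Its values were 15.27, 11.97 and 13.01 RPKM in Con and 12.58, 12.41 and 9.86 RPKM in STZ, and the groups overlapped. The log2 change was -0.19 with a 95% interval from -0.51 to 0.12 (adjusted p 0.300). Under the 3 scalings that set the libraries to a common middle it was -0.44 to -0.47 and passed the threshold (adjusted p 0.0347 to 0.0404), while rescaling to TPM gave an adjusted p of 0.898.

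Slc16a10 encodes MCT10, which carries T3, T4 and aromatic amino acids across the membrane. Con mice had 18.37, 13.83 and 16.12 RPKM and STZ mice had 45.26, 36.00 and 31.25 RPKM. The lowest STZ mouse stood well above the highest Con mouse. The STZ mean was 2.33 times the Con mean, with a log2 change of 1.16 (SE 0.19) and an adjusted p of 0.00148. It was called under all 18 alternatives of test, scaling and samples.

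Dio1 had the largest change of the members. It stood at 73.18, 54.54 and 66.41 RPKM in Con and at 0.44, 0.69 and 0.70 RPKM in STZ. All 3 STZ mice were under 1 RPKM, where a value rests on few reads, and the STZ mean was 0.943% of the Con mean, a ratio of 106. On the log2(RPKM + 1) scale, which shortens differences at such low levels, the change was -5.34 (SE 0.87) with an adjusted p of 0.00146. The scatter of Dio1 in A10-FMT and Con-FMT, which share the fit, enters this SE. Counted from the lowest log2 change of the 10602 genes tested, Dio1 ranked 23. Dio1 was called under all 18 alternatives (log2 change -6.53 to -5.25).

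The receptors moved little. Thrb, the main receptor form of the liver, had 5.23, 5.82 and 5.38 RPKM in Con and 6.39, 6.64 and 6.48 RPKM in STZ, without overlap. Its log2 change of 0.21 (95% interval 0.04 to 0.39) missed the threshold at an adjusted p of 0.0563, and it equalled the median of all genes tested. Thrb was called after rescaling to TPM (0.43, adjusted p 0.00542), with array weights (0.0263) and with all 6 groups in the fit (0.0482), and over the alternatives its adjusted p ran from 0.00542 to 0.904. Thra had 4.24 to 6.16 RPKM in Con and 6.48, 7.03 and 4.87 RPKM in STZ, with a log2 change of 0.19 (95% interval -0.21 to 0.60, adjusted p 0.428). Under the 3 scalings to a common middle both receptors had changes between -0.05 and -0.02, so that their sign turned under each of the 3.

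The hormone-raised genes went opposite ways in value. Thrsp, a lipogenic gene also known as Spot 14, had 163.76, 322.30 and 246.07 RPKM in Con and 190.16, 52.74 and 53.37 RPKM in STZ. Mouse 1 of STZ lay within the Con range, and mice 2 and 3 lay far below it. The log2 change of -1.52 (95% interval -2.78 to -0.26) missed the threshold at an adjusted p of 0.0553. Without STZ mouse 1 it was -2.13 with an adjusted p of 0.0143, and over 18 alternatives the adjusted p ran from 0.0131 to 0.183.

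Klf9 encodes a zinc finger factor that T3 and also glucocorticoids raise. It had 15.97, 15.81 and 14.54 RPKM in Con and 25.94, 32.56 and 24.68 RPKM in STZ, without overlap. The STZ mean was 1.80 times the Con mean, with a log2 change of 0.80 (SE 0.11) and an adjusted p of 0.000623. It was called under all 18 alternatives. Klf9 thus rose in the same livers in which Dio1, another gene raised by T3, fell.

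Of the 3 STZ mice, mouse 3 was the nearest to the Con mean for all 4 called members. For Dio1 this rested on 0.70 RPKM in mouse 3 against 0.69 RPKM in mouse 2. Of the uncalled members, Thra was also nearest in mouse 3, while Thrsp, Thrb and Serpina7 were nearest in mouse 1. Among markers of other cell types, those of stellate cells summed to 73.0 to 90.1 RPKM in Con and 112 to 142 RPKM in STZ, and those of Kupffer cells to 49.5 to 76.7 in Con and 71.2 to 128 RPKM in STZ. Most of the stellate sum was Dcn (mean 64.85 RPKM in Con and 107 RPKM in STZ), and the groups overlapped for Reln, Lrat and Colec11. Sinusoidal endothelial markers summed to 32.7 to 36.6 in Con and 33.9 to 43.7 RPKM in STZ, and cholangiocyte markers to 3.88 to 4.57 and 3.06 to 4.61 RPKM. Hepatocyte markers summed to 34412 to 50753 RPKM in Con and 34109 to 46939 RPKM in STZ, most of it Alb (mean 30344 and 30089 RPKM). Some single markers did not overlap between the groups: Cps1 had a mean of 374 RPKM in Con and 955 in STZ, Hnf4a 106 and 179, Cyp2e1 2183 and 3856, and Apoa1 9113 and 5701. The part of these markers in the members' changes was not tested.

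The median gene rose by 0.21 on the log2 scale in STZ against Con, and 85.7% of the called genes were higher. With each library scaled to a common middle the median change was -0.03 to -0.01, and the share of higher calls was 46.6% to 51.7%. Rescaling to TPM gave a median of 0.43 and 94.6%. The directions of Dio1, Ttr, Slc16a10 and Klf9 were the same under each of these scalings.

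The STZ effect was also seen in mice on AOS. In STZ+AOS against AOS, 5 of the 8 members were called (2 higher, 3 lower), against 37.9% of 10822 genes tested. Ttr had 6015, 5321 and 5346 RPKM in AOS and 1957, 2727 and 2732 RPKM in STZ+AOS, with a log2 change of -1.18 (SE 0.19, adjusted p 0.000598). Slc16a10 had 14.95, 14.90 and 14.83 RPKM in AOS and 32.00, 45.97 and 73.50 RPKM in STZ+AOS, with a log2 change of 1.62 (SE 0.24, adjusted p 0.000343).

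Dio1 in the AOS mice, at 26.72, 34.55 and 32.13 RPKM, stood above all STZ+AOS mice, at 8.23, 0.71 and 0.54 RPKM. The log2 change was -3.46 (SE 0.86, adjusted p 0.00651). Thrsp had 310.64, 115.59 and 172.63 RPKM in AOS and 69.87, 81.70 and 32.37 RPKM in STZ+AOS, a log2 change of -1.67 (SE 0.57, adjusted p 0.0321). Klf9 had 24.20, 16.27 and 19.73 RPKM in AOS and 25.85, 28.82 and 59.50 RPKM in STZ+AOS, a log2 change of 0.81 (SE 0.22, adjusted p 0.0117).

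Some of these calls rested on single mice or on the scaling. Mouse 3 of STZ+AOS was the highest of all 18 mice for Slc16a10, Klf9, Serpina7 and Thrb (7.10 RPKM) and the lowest for Thrsp. Without it Klf9 was called (adjusted p 0.0294) and Thrsp was not (adjusted p 0.128). Thrsp also lost its call without AOS mouse 1 (adjusted p 0.123), without AOS mouse 3 (adjusted p 0.0669) or without the filter (adjusted p 0.0591), and over 17 alternatives its adjusted p ran from 0.0256 to 0.128. Klf9 lost its call without AOS mouse 2 (adjusted p 0.0587), with only these 2 groups in the fit (adjusted p 0.0965) and under the 3 scalings to a common middle (adjusted p 0.0626 to 0.0710). Serpina7, Thra and Thrb were not called, with log2 changes of -0.02, 0.07 and 0.09.

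The difference between the STZ effects with and without AOS was tested directly. No member was called, as was no gene at all (0% of 10822), by limma or for the members under any of 23 alternatives, and no member had an unadjusted p under 0.05. The interval was wide for Dio1, at 1.88 with a 95% interval from -0.71 to 4.47, and narrow for Thrb, at -0.12 with an interval from -0.36 to 0.12.

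**Figure D2:**
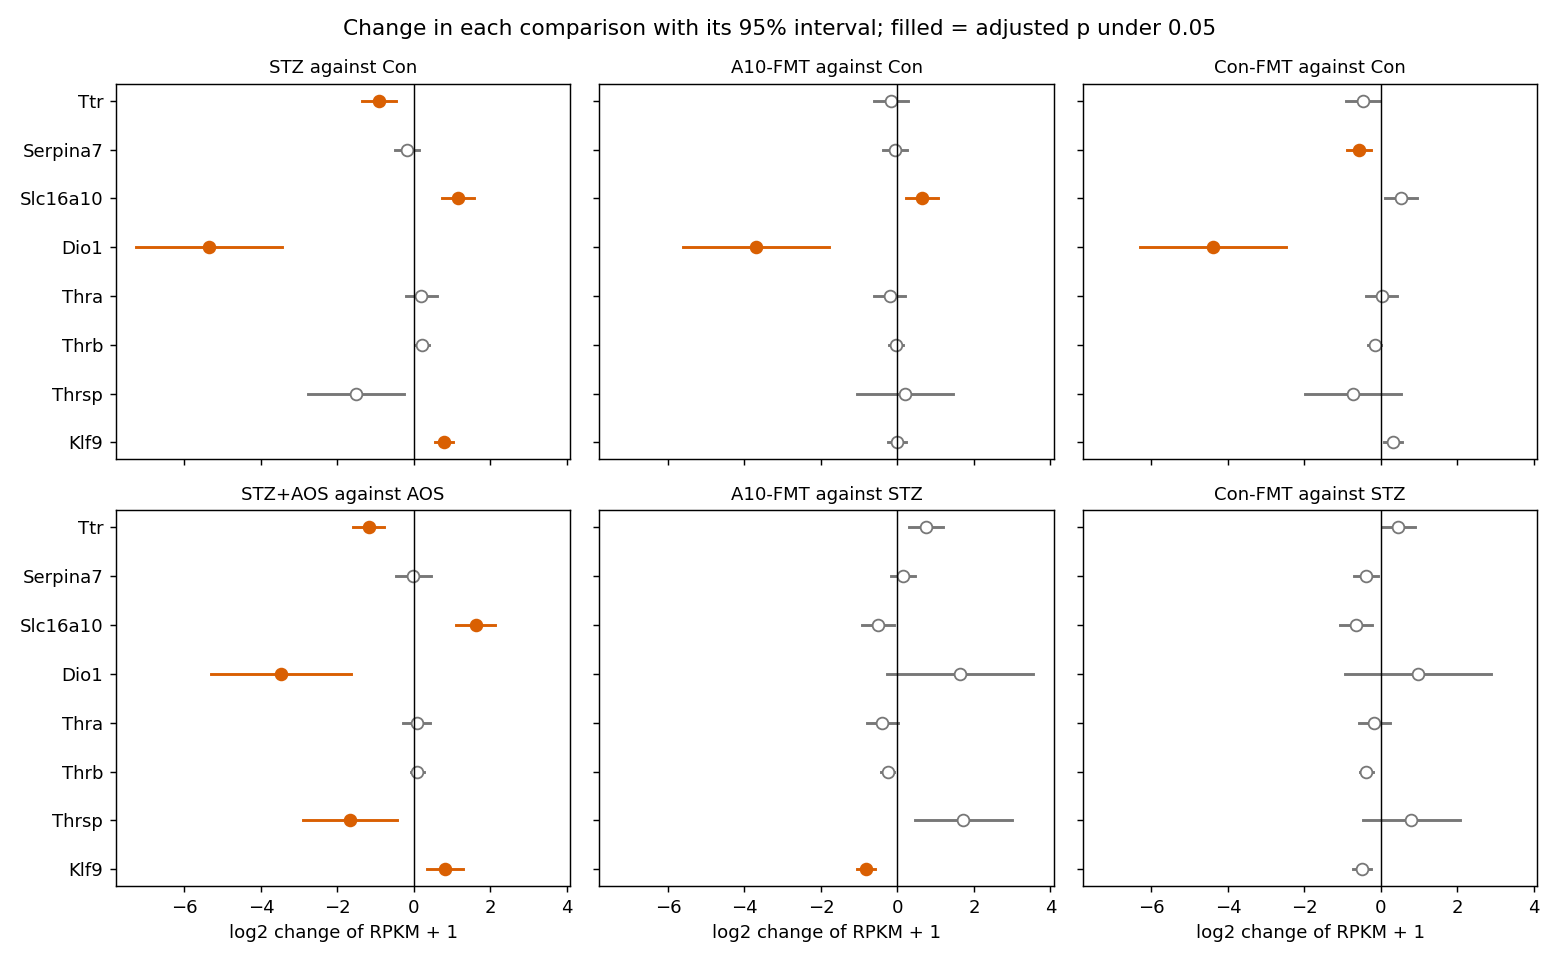
Log2 change of RPKM + 1 (x axis) of the 8 genes in 6 comparisons, with the 95% interval as a line; filled points have an adjusted p under 0.05. Dio1 is filled on the low side in all 4 comparisons with Con or AOS as the reference, and Klf9 is the only filled point in the 2 comparisons with STZ, at -0.82 in A10-FMT.

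The transplant groups were compared with STZ, for which the paper describes no daily dose of vehicle by mouth. Microbiota and the dosing itself therefore cannot be told apart in these comparisons. Because donor content was pooled within each kind, the mice of a group are not replicates of the donor microbiota. Klf9 was the only member called in A10-FMT against STZ, 1 of 8, where 0.226% of 10602 genes tested were called. A10-FMT mice had 15.50, 15.90 and 14.27 RPKM, each below the lowest STZ mouse at 24.68 RPKM. The log2 change was -0.82 (SE 0.11) with an adjusted p of 0.0269. It was called under 11 of 18 alternatives, with adjusted p from 0.00127 to 0.196. The call was lost without any 1 of the A10-FMT mice or without STZ mouse 2 (adjusted p 0.0674 to 0.108), and the log2 change was -0.90 to -0.70 throughout.

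In Con-FMT against STZ no member was called, where 0.00943% of 10602 genes tested (1 gene) were called. At an unadjusted p under 0.05 there were 5 members, beside 2131 of all 10602 genes (20.1%). Klf9 had 18.88, 18.36 and 20.79 RPKM in Con-FMT, also below each STZ mouse, with a log2 change of -0.49 (95% interval -0.72 to -0.26, adjusted p 0.0719). Thrb had 4.69, 5.05 and 4.59 RPKM, below each STZ mouse, with a log2 change of -0.38 (95% interval -0.56 to -0.20) and the same adjusted p of 0.0719.

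STZ mouse 3 weighed on both comparisons. Without it 4 members were called in Con-FMT against STZ, all lower: Klf9 (adjusted p 0.00919), Thrb (0.0223), Slc16a10 (0.0310) and Serpina7 (0.0482). In A10-FMT against STZ, 2 members were then called, Klf9 lower (adjusted p 0.00127) and Ttr higher (0.0292). The number of genes called over the whole table then rose from 24 to 1347 in A10-FMT and from 1 to 1640 in Con-FMT. With array weights, a fit that lets a library count less and whose estimation of the weights stopped before it converged, 2 and 3 members were called, against 7.44% and 11.9% of all genes.

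Ttr and Slc16a10 had group means between those of STZ and Con, without a call. Ttr had 4318, 4355 and 4166 RPKM in A10-FMT and 3203, 4039 and 3270 RPKM in Con-FMT, above each STZ mouse. Its log2 change was 0.75 (SE 0.20, adjusted p 0.0912) in A10-FMT and 0.46 (SE 0.20, adjusted p 0.235) in Con-FMT. Slc16a10 had 25.22, 22.17 and 30.16 RPKM in A10-FMT and 30.52, 18.62 and 22.51 RPKM in Con-FMT, below each STZ mouse, with log2 changes of -0.51 (adjusted p 0.170) and -0.64 (adjusted p 0.114). The mice did not overlap with STZ for 5 of the 8 members in each of these comparisons, against 21.5% of all genes tested in A10-FMT and 17.7% in Con-FMT. Both comparisons share the STZ mice.

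Dio1 was uneven within the transplant groups. A10-FMT mice had 3.29, 1.52 and 10.68 RPKM, each above the highest STZ mouse. Con-FMT mice had 0.13, 0.44 and 17.92 RPKM, and 2 of these 3 mice lay at or below the lowest STZ mouse. The log2 change against STZ was 1.64 (95% interval -0.26 to 3.55, adjusted p 0.303) in A10-FMT and 0.97 (-0.94 to 2.87, adjusted p 0.559) in Con-FMT. The value of Con-FMT turned to -0.33 without Con-FMT mouse 3 (adjusted p 0.767).

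Thrsp also varied within these groups, with a coefficient of variation of 41.1% in A10-FMT and 77.4% in Con-FMT. It had 186.30, 415.77 and 256.70 RPKM in A10-FMT and 85.14, 322.93 and 104.00 RPKM in Con-FMT. The highest Thrsp and the highest Dio1 of Con-FMT were in different mice, mouse 2 and mouse 3. Against STZ the log2 change of Thrsp was 1.72 in A10-FMT (95% interval 0.47 to 2.98, adjusted p 0.140) and 0.80 in Con-FMT (-0.46 to 2.06, adjusted p 0.456). Thra had 5.01, 5.48 and 3.01 RPKM in A10-FMT and 5.06, 4.96 and 5.77 RPKM in Con-FMT, and mouse 3 of A10-FMT lay below the STZ range. Its log2 changes against STZ were -0.39 (95% interval -0.80 to 0.01) and -0.18 (-0.58 to 0.23).

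Against Con, the same mice show how far the members stood from the untreated liver. In A10-FMT 2 of 8 members were called, against 18.4% of 10602 genes tested: Dio1 lower, at -3.70 (SE 0.87, adjusted p 0.0170), and Slc16a10 higher, at 0.65 (SE 0.19, adjusted p 0.0380). The A10-FMT mean of Dio1 was 7.98% of the Con mean, and Dio1 ranked 9 from the lowest log2 change. The Dio1 call was lost without Con mouse 1, Con mouse 3, A10-FMT mouse 1 or A10-FMT mouse 2 (adjusted p 0.0550 to 0.0641), with log2 changes of -4.31 to -3.20 over 18 alternatives. The Slc16a10 call was made under 8 of 18 alternatives, with adjusted p from 0.000226 to 0.157, and without any 1 mouse other than A10-FMT mouse 2 it was lost.

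Klf9 in A10-FMT had a log2 change against Con of -0.02, with a 95% interval from -0.25 to 0.21. For Ttr the change was -0.17 (95% interval -0.61 to 0.28) and for Thrsp 0.20 (-1.05 to 1.46).

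In Con-FMT against Con 2 of 8 members were called, against 19.4% of genes tested. Dio1 was lower, at -4.38 (SE 0.87, adjusted p 0.00962), and was called under all 18 alternatives. Serpina7 was lower too, with 9.37, 7.02 and 9.69 RPKM, each below the lowest Con mouse at 11.97 RPKM. Its log2 change was -0.58 (SE 0.14, adjusted p 0.0205), and the call was lost without Con mouse 1 (adjusted p 0.0860), without Con mouse 3 (0.0592) and with all 6 groups in the fit (0.0684). Klf9 missed the threshold at 0.31 (95% interval 0.07 to 0.54, adjusted p 0.0632), and Slc16a10 at 0.52 (0.10 to 0.94, adjusted p 0.0737).

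The direct comparison of A10-FMT with Con-FMT sets mice given 2 pools of donor content side by side, from donors with and without AOS. No member was called, as was no gene (0% of 10602 tested), by limma or under any of 18 alternatives. At an unadjusted p under 0.05 there were 2 members, Serpina7 at 0.52 (95% interval 0.20 to 0.83) and Klf9 at -0.33 (-0.56 to -0.09), both with an adjusted p of 0.999, beside 303 of all 10602 genes (2.86%). The 3 A10-FMT mice and the 3 Con-FMT mice did not overlap for Serpina7, Klf9 and Ttr, 3 of 8 members, against 8.92% of all genes tested. Dio1 had a wide interval, 0.68 with limits of -1.23 and 2.59. A call in the A10-FMT comparison with STZ and none in that of Con-FMT is therefore not a tested difference between the 2 kinds of microbiota.

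AOS alone was compared with Con, and AOS added to STZ with STZ. No member was called in AOS against Con, where 0.00924% of 10822 genes tested (1 gene) were called, and none had an unadjusted p under 0.05. Dio1 had 26.72, 34.55 and 32.13 RPKM in AOS, below each Con mouse, and the AOS mean was 48.1% of the Con mean. In the fit of all 6 groups, where the scatter of Dio1 in the diabetic groups enters its error, the log2 change was -1.03 (95% interval -2.86 to 0.80, adjusted p 0.837). With only the Con and AOS mice in the fit the adjusted p was 0.0336, and over 17 alternatives it ran from 0.0336 to 1.00.

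Of the other members, Klf9 and Thrb were also higher in each AOS mouse than in each Con mouse, by narrow gaps. The lowest AOS mouse and the highest Con mouse had 5.83 and 5.82 RPKM of Thrb, and 16.27 and 15.97 RPKM of Klf9. Klf9 had a log2 change of 0.34 (95% interval -0.14 to 0.82, adjusted p 0.797) and Thrb of 0.14 (-0.03 to 0.31, adjusted p 0.765). AOS and Con did not overlap for 3 of 8 members, against 24.4% of all genes tested. With array weights 2 members were called, Klf9 (adjusted p 0.000631) and Thrb (0.00225), against 41.8% of all genes, in a fit whose weights did not converge.

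In STZ+AOS against STZ no member was called and no gene was (0% of 10822 tested), and no member had an unadjusted p under 0.05. The groups overlapped for all 8 members, where 5.13% of all genes tested did not overlap. The largest value was that of Dio1, 0.85 (95% interval -0.98 to 2.68), which came from mouse 1 of STZ+AOS at 8.23 RPKM, and it was 0.02 without that mouse. For Slc16a10 the change was 0.35 (-0.15 to 0.86) and for Klf9 0.35 (-0.12 to 0.83).

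The order of the 6 groups differed between the members. Dio1 ran from Con over AOS to the 4 diabetic groups. Con and AOS did not overlap with each other or with the next group, and the 4 diabetic groups overlapped with their neighbours. Slc16a10 and Klf9 were highest in STZ+AOS and STZ, and these 2 groups overlapped. For Slc16a10, STZ and A10-FMT did not overlap, nor did Con-FMT and Con. Ttr was lowest in STZ+AOS and STZ, and Con-FMT lay above STZ and below A10-FMT without overlap.

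The spread also set the members apart. Over the 18 mice the highest value was 563 times the lowest for Dio1, 12.8 times for Thrsp, 5.31 times for Slc16a10 and 4.17 times for Klf9. It was 3.11 times for Ttr, 2.83 times for Serpina7, 2.34 times for Thra and 1.55 times for Thrb. Within a group, the coefficient of variation of Dio1 was 14.6% in Con, 12.9% in AOS and 24.1% in STZ, and 165% in Con-FMT, 139% in STZ+AOS and 94.1% in A10-FMT. Slc16a10 in AOS, at 0.405%, was the tightest.

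Other genes of thyroid hormone biology were taken as 5 lists with 46 genes, of which 42 passed the filter. In STZ against Con 22 of the 42 were called, 17 higher and 5 lower, beside 38.5% of all genes called. The median log2 change of the 42 was 0.31, against 0.21 for all genes. Of all genes called there, 85.7% were higher, and 46.6% to 51.7% with each library scaled to a common middle. The directions of the 42 genes under those scalings are not given here. Slco1c1, Dio2, Dio3 and Hr were under the filter. In the comparisons of A10-FMT and of Con-FMT with STZ, 0 of the 42 were called by limma, and with array weights 7 and 9 (7.44% and 11.9% of all genes).

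Among the other transporters 4 of 8 tested genes were called in STZ against Con, 2 in each direction. Slco1a4, an organic anion carrier that takes up thyroid hormones, was higher, with a mean of 5.59 ± 2.83 RPKM in Con and 117 ± 45.5 RPKM in STZ (SD, n = 3; log2 change 4.18, adjusted p 0.000292). Slco1a1, its neighbour in the same family, was lower, with 125 to 156 RPKM in Con and 3.53, 0.85 and 117 RPKM in STZ mice 1 to 3 (log2 change -3.80, adjusted p 0.0197). Mouse 3 of STZ was thus close to Con for Slco1a1. Slc10a1, the bile acid carrier NTCP that also takes up hormone sulfates, was higher, at 302 ± 57.0 and 582 ± 135 RPKM (log2 change 0.93, adjusted p 0.00322). Members of the Slco1a family have similar sequences, and how reads were shared between them is not known.

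Among the other enzymes 4 of 5 tested genes were called, all higher, as were 85.7% of all genes called. Sult1a1, a sulfotransferase, had 176 ± 7.03 RPKM in Con and 915 ± 338 RPKM in STZ (log2 change 2.29, adjusted p 0.000722). Ugt1a1, a glucuronosyltransferase that conjugates T4 and bilirubin, had 67.8 ± 18.5 and 293 ± 108 RPKM (log2 change 2.06, adjusted p 0.000637). Its last exons are shared with the other Ugt1a genes, so that the value may include their reads. Sult1a1 and Ugt1a1 were also called higher in A10-FMT against Con (1.71 and 1.45) and in Con-FMT against Con (1.63 and 1.02).

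Of the other plasma carriers and partners, Rbp4, the retinol-binding protein that travels with transthyretin, rose from 2506 ± 297 to 5988 ± 1786 RPKM (log2 change 1.21, adjusted p 0.00581), while Alb had a log2 change of -0.01 (adjusted p 0.986). Ttr and Rbp4, whose proteins circulate as a complex, were thus called in opposite directions in the same mice. Among the receptor partners and coregulators 7 of 14 were called, all higher, where 85.7% of all genes called were higher. Crym, a cytosolic T3-binding protein, had the largest change of them at 1.17 (adjusted p 0.00895), from 0.717 ± 0.0929 to 2.97 ± 1.15 RPKM.

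Of the other liver genes raised by T3, 6 of 13 tested were called, 3 higher and 3 lower. Pck1, an enzyme of glucose production, had 311 ± 28.6 RPKM in Con and 2184 ± 679 RPKM in STZ (log2 change 2.76, adjusted p 0.000292). Ppargc1a, a coactivator, had a log2 change of 1.86 (adjusted p 0.00105) and Cpt1a, the gate of mitochondrial fatty acid oxidation, of 1.51 (adjusted p 0.00116). Fasn, the fatty acid synthase, fell from 56.6 ± 15.8 to 27.9 ± 8.84 RPKM (adjusted p 0.0125), and Bcl3, a nuclear partner of NF-kappa B, had a log2 change of -0.96 (adjusted p 0.00491). The called genes raised by T3 therefore did not share a direction. Fasting hormones are known to raise Pck1, Ppargc1a and Cpt1a too, and their part in these changes was not tested. Of the 12 genes named here, mouse 3 of STZ was the nearest to the Con mean for 10.

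**Figure D3:**
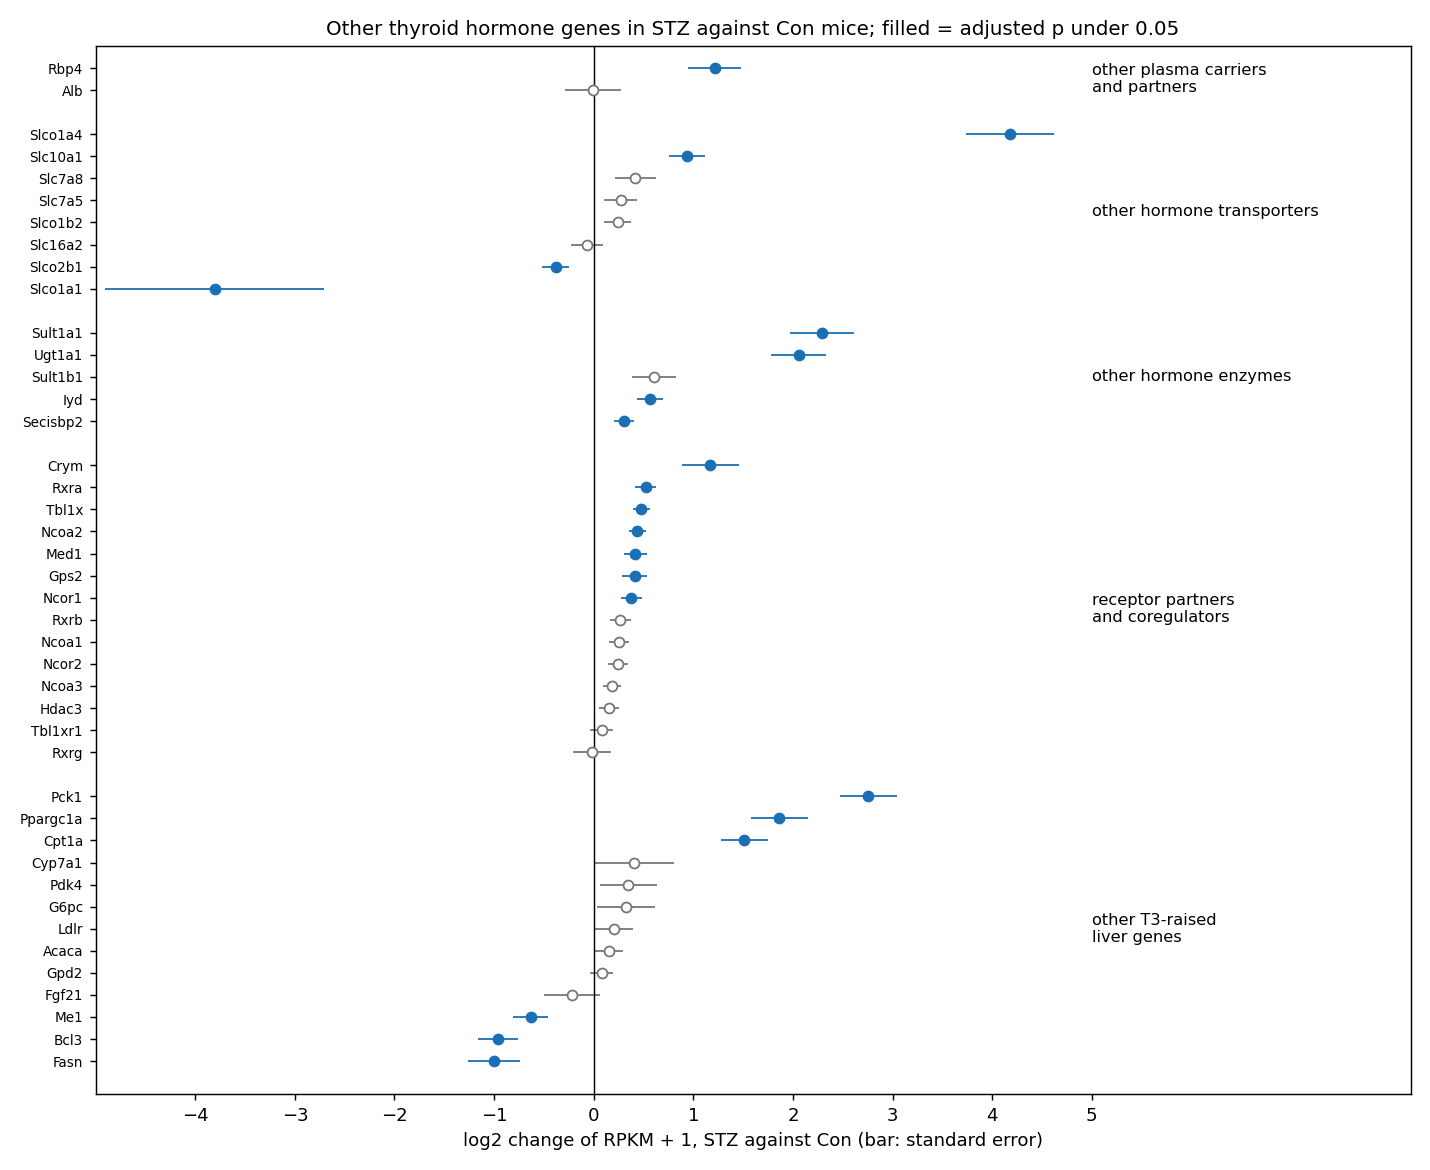
Log2 change of RPKM + 1 in STZ against Con (x axis) with its standard error for the 42 tested genes of the 5 other lists, grouped by list; filled points have an adjusted p under 0.05. All 7 filled points of the receptor partners and coregulators and all 4 of the enzymes lie on the high side, while the transporters and the genes raised by T3 hold filled points on both sides. Of all genes called in this comparison, 85.7% were higher.

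Against Con, 11 of the 42 genes were called in A10-FMT (all higher), beside 18.4% of all genes, and 12 in Con-FMT (11 higher, 1 lower), beside 19.4%. In STZ+AOS against AOS 23 were called (15 higher, 8 lower), beside 37.9%. Between the 2 transplant groups, in AOS against Con and in STZ+AOS against STZ, 0 of the 42 were called by limma. With array weights, again without convergence, 22 were called in AOS against Con, where 41.8% of all genes were, and with only these 2 groups in the fit 2 were called (0.397% of all genes).

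For each member called in at least 1 comparison, the genes most like it were found over the 18 libraries, by the root-mean-square difference in log2(RPKM + 1) after subtracting each gene's Con mean. For Dio1 they were Nat8f5, Serpina12 and Obp2a, at 1.42, 1.48 and 1.55, where Dio1 itself had a root mean square of 3.84. Serpina12, which encodes the serpin vaspin, had a mean of 13.3 RPKM in Con and 0.193 RPKM in STZ, and Obp2a had 29.9 RPKM and 0.503 RPKM. For Ttr they were Aadac, Ghr and Prdx4 (0.19, 0.20 and 0.20), and Ghr, the growth hormone receptor, had means of 202 RPKM in Con and 105 RPKM in STZ. For Slc16a10 they were Amigo2, Psmd9 and Dusp3 (0.21, 0.22 and 0.22), and for Klf9 Arhgap5, Heca and Wac (0.16, 0.20 and 0.21). For Thrsp they were Tlcd2, Acss2 and Bmyc, at 0.66, 0.67 and 0.69 against its own 1.26, where Acss2, which makes acetyl-CoA from acetate, had means of 97.8 RPKM in Con and 39.8 RPKM in STZ. For Serpina7 they were Hirip3, Zfp687 and Tom1 (0.22, 0.24 and 0.24), against its own 0.34.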

How the data were processed

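Liver RNA of 18 mice (6 groups of 3) was sequenced on an Illumina HiSeq instrument after oligo(dT) enrichment. The authors deposited 1 RPKM value per gene and library. By the paper's methods reads were mapped to reference genes with SOAPaligner, while the submitters' processing notes name Bowtie 0.12.2 and mm10. Read depth cannot be read from RPKM: steps of low values in 14 of 887 candidate genes gave relative depths of 0.945 to 1.11.

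Symbols were matched to 19057 rows, of which 27 look like dates and 3 repeat, none of them a member. Genes that reached 1 RPKM in 3 or more libraries of a fit were kept, and log2(RPKM + 1) was fitted with limma 3.58.1 in R 4.3.3 (eBayes with trend). Con, STZ, A10-FMT and Con-FMT (12 libraries) were fitted together, and all 18 libraries for comparisons with AOS. Adjusted p-values (Benjamini-Hochberg) under 0.05 were called. Samples were grouped by the treatment in their labels, which tell the 3 libraries of a group apart only by number. The p-values rest on the spread between libraries within groups, pooled over all groups of the fit and moderated over genes by eBayes. On simulated data for STZ against Con the fit, run on 10602 genes, recovered 193 of 200 changed genes with 13 false calls. All 200 were raised by the same step, larger than the log2 changes of Ttr, Slc16a10 and Klf9, under independent normal noise. The recovery therefore does not measure how well smaller changes are found, or how the fit behaves where many genes change.

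Alternatives covered scaling, pseudocount (0.1), filters, the variance model, the samples in the fit, a replicate block, a stricter threshold (adjusted p of 0.001 or less and log2 change of 1 or more) and leaving out each mouse. The estimation of array weights stopped before convergence in both fits. Of the 5 other lists, the 12 called genes with the largest change in STZ against Con were named. The members and lists were chosen with earlier results of these data known. Positions come from GENCODE M21 and promoter windows from RefSeq (GRCm38.p6).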

Additional observations from a re-analysis of the deposited data

Results flagged for a closer look

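Serpina7 lay on opposite sides of the STZ mean of 11.6 RPKM in the 2 transplant groups. All 3 A10-FMT mice lay above this mean, at 11.99, 14.73 and 11.76 RPKM. All 3 Con-FMT mice lay below it, at 9.37, 7.02 and 9.69 RPKM. The STZ mice themselves had 12.58, 12.41 and 9.86 RPKM, so that A10-FMT overlapped with STZ and Con-FMT did not. Against STZ the log2 change was 0.13 in A10-FMT (limma, adjusted p 0.635) and -0.38 in Con-FMT (limma, adjusted p 0.174). The log2 difference between A10-FMT and Con-FMT was 0.52 (limma, unadjusted p 0.00387, adjusted p 0.999), so that it did not pass the correction over 10602 genes. Over 18 alternatives the difference was 0.39 to 0.59 with adjusted p from 0.203 to 1.00. No outlier test was run, because each group held 3 mice.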

How the results depend on the processing

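Of 1536 member values under an alternative, 1452 kept their side of the threshold (79 of these, all uncalled, changed sign), 46 lost the call, 38 gained it and 0 were called in the opposite direction. The number of members called in A10-FMT against STZ (1) became 0 without the filter, with only the compared groups, with all 6 groups and at the stricter threshold, 2 with array weights, and 0 to 2 when 1 mouse was left out. In Con-FMT against STZ it went from 0 to 3 with array weights and was 0 to 4 without 1 mouse. In A10-FMT against Con (2) it was 1 under quantile normalization, median centring, median-ratio scaling, no filter and all 6 groups, 0 at the stricter threshold, and 0 to 1 without 1 mouse. In Con-FMT against Con (2) it was 4 after rescaling to TPM, 7 with array weights, 1 with all 6 groups, 0 at the stricter threshold, and 1 to 3 without 1 mouse. In AOS against Con (0) it was 2 with array weights and 1 with only those groups. At the stricter threshold it was 0 in STZ against Con (4) and 2 in STZ+AOS against AOS (5). It was 4 to 5 without 1 mouse in both of these, 4 to 6 in STZ against Con under the other alternatives (6 under median centring, median-ratio scaling, array weights and all 6 groups), and 4 to 6 in STZ+AOS against AOS (6 after rescaling to TPM). Beside these counts, STZ against Con had 2934 genes called under median centring, 2902 under median-ratio scaling, 5522 with array weights and 3904 with all 6 groups. Rescaling to TPM called 3982 of 10602 genes in Con-FMT against Con and 6121 of 10822 in STZ+AOS against AOS. For A10-FMT against Con the 3 scalings to a common middle called 1109 to 1171 genes, no filter 1445 and all 6 groups 1848. The cause of these shifts in count was not tested.

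Over all genes, the count against STZ ran from 0 to 1347 in A10-FMT (24) and from 0 to 1640 in Con-FMT (1). In STZ against Con it was 191 at the stricter threshold, 2667 with only those groups and 6334 after rescaling to TPM (4087). In A10-FMT against Con it was 33 to 5789 (1953), in Con-FMT against Con 21 to 6051 (2059), in STZ+AOS against AOS 298 to 6121 (4102), and in AOS against Con 0 to 4524 (1). The counts of other-list genes reached 26 (11) and 28 (12) with array weights in A10-FMT and Con-FMT against Con, and 14 (22) without 1 mouse in STZ against Con. With array weights 54.6% of all genes were called in A10-FMT against Con and 57.1% in Con-FMT against Con.

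The mice share numbers 1 to 3 across groups. Same-numbered mice correlated with r from -0.25 to 0.47 after removing group means, and 9 of 18 libraries correlated best with their own number. The mean r was 0.039 for same-numbered mice and -0.020 for other mice of other groups. These values do not settle whether same-numbered mice were paired. With the replicate block 4 members were called in STZ against Con, 1 in A10-FMT compared with STZ and 3 in Con-FMT against Con, where Slc16a10 was added (adjusted p 0.0473). RPKM give no read depth, so the counting error of values under 1 RPKM, such as Dio1 in STZ, is unknown.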
